A study of Chlorocebus sabaeus with 4 samples.

Results

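A set of 9 genes of retinoic acid synthesis, binding and breakdown is described in the corpus luteum of vervet monkeys (Chlorocebus sabaeus). Its probe sets were found by gene symbol, as all those of ALDH1A1, ALDH1A2, ALDH1A3, CRABP1, CRABP2, RBP4, STRA6, DHRS3 and CYP26B1. The genes were chosen by the changes of ALDH1A2 and CRABP2 between samples 1 and 2 on these arrays, together with others of the same pathway, so the changes within each animal are given as a description, with no test. Of the 9 genes, 8 had a probe set with that single symbol (14 probe sets in all, of 19775 genes named on the array), and CRABP1 had none here.

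The samples came from 2 adult females of 16 years, both of 1 research colony. One, monkey 1030, ate ad libitum. The other, monkey 1031, was on calorie restriction and is called the restricted monkey here. From each came 2 luteal samples, numbered 1 and 2, with 1 array for each, and the effect of weight change was to be read within each monkey. With 1 monkey per diet, diet and animal cannot be told apart, and the order in which the numbers were collected is not in the labels. Every change is therefore given as sample 2 minus sample 1, in log2 signal, where 1.00 is 2-fold.

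Retinoic acid is made from vitamin A in steps. Retinol circulates on the carrier RBP4 and enters some cells through its receptor STRA6. It is oxidised reversibly to retinal, and DHRS3 drives the step back to retinol. The ALDH1A enzymes oxidise retinal irreversibly to retinoic acid. Inside the cell, CRABP1 and CRABP2 bind the acid, and CRABP2 delivers it to nuclear retinoic acid receptors, while CYP26 enzymes break it down. In the ovary, follicular and luteal cells take up retinol and make retinoic acid, which is known to bear on steroid synthesis.

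The tissue label was checked against luteal markers. CYP11A1, the side-chain cleavage enzyme of steroid synthesis, had a log2 signal of 12.2 and 9.97 in the ad libitum monkey's samples 1 and 2. It read 11.0 and 11.8 in the restricted monkey. STAR, which brings cholesterol into mitochondria, read 12.5 in the ad libitum sample 1 and 11.2-fold less in its sample 2. It read 10.2 and 11.3 in the restricted monkey. All 10 luteal markers listed were 2-fold or more lower in the ad libitum sample 2 than in sample 1. The tissue label was thus less clearly borne out for that sample. There CYP19A1, the oestrogen-making enzyme, read 4.41, against 9.92 or more in the other samples. INHA, a subunit of inhibin, read 6.88 there, against 10.3 or more. The median of all genes' mean signals, log2 5.26, served as the level filter, and 4 of the 8 measured genes passed it: ALDH1A1, ALDH1A2, CRABP2 and DHRS3. ALDH1A3, RBP4, STRA6 and CYP26B1 lay below it in all 4 samples. The ad libitum monkey's sample 2 stood apart, with 912 to 1031 of 9888 genes 2-fold apart from any other array, against 122 to 333 among the rest. It was the highest sample for 5 of the 8 genes and the lowest for the other 3. Changes within the ad libitum monkey rest on it and have no value without it.

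**Figure D1:**
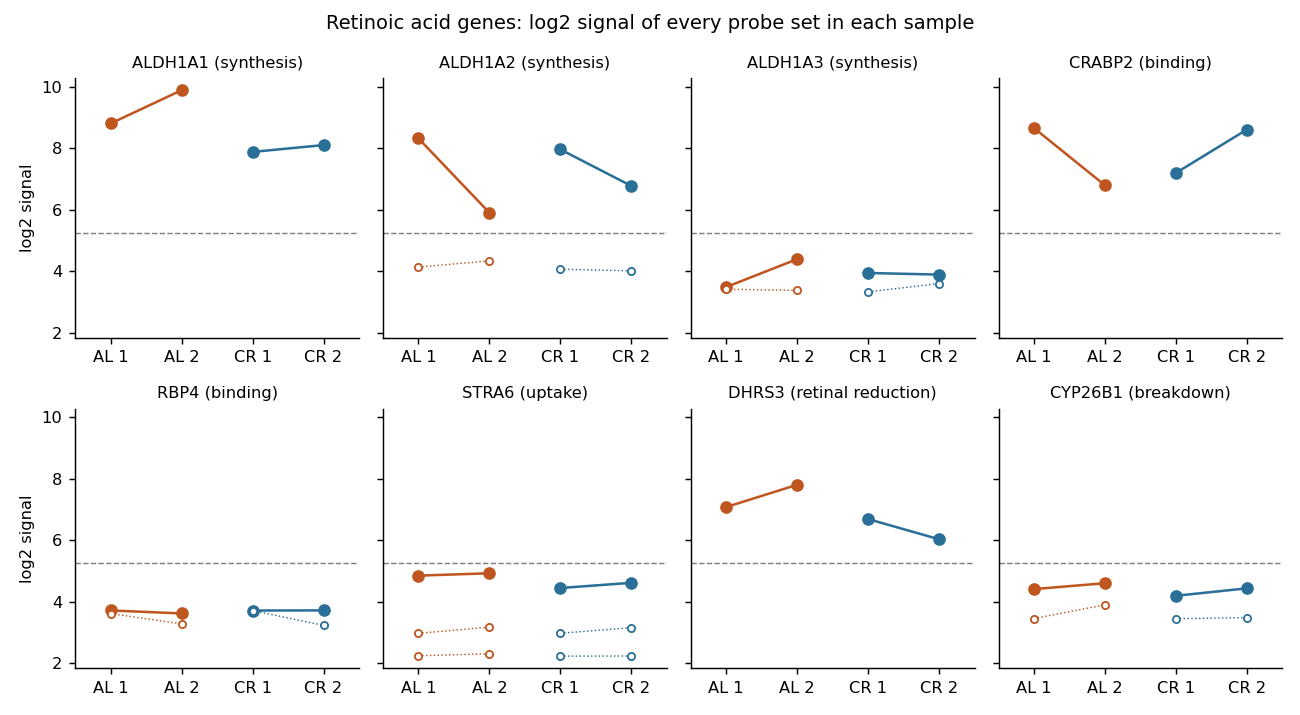
Log2 signal (y axis) of every probe set of the 8 measured genes in the ad libitum (AL) and calorie restriction (CR) samples 1 and 2 (x axis), with lines joining the samples of 1 animal, filled points for the brightest probe set of a gene, open points for its others, and the level filter dashed. The brightest probe sets of ALDH1A1, ALDH1A2, CRABP2 and DHRS3 lie above the filter in every sample, and all other probe sets plotted lie below it.

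In the ad libitum monkey, 2 of the 8 genes were 2-fold or more lower in sample 2, ALDH1A2 and CRABP2, and 1 was higher, ALDH1A1. Of all 19775 genes, 3.83% were 2-fold lower and 1.96% higher. In the restricted monkey ALDH1A2 was again lower, while CRABP2 was higher, where 0.45% of all genes were 2-fold lower and 0.349% higher. The genes were chosen with these changes known, so nothing is read from the difference between the counts and the shares. The median change over the 8 genes was 0.13 and 0.087 in the ad libitum and restricted monkey, beside medians of 0.017 and 0.0028 over all genes.

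The 3 synthesis enzymes had different patterns. ALDH1A2, the retinal dehydrogenase of many mesenchymal tissues, had a log2 signal of 8.33 and 5.91 in the ad libitum monkey's samples 1 and 2, and of 7.97 and 6.78 in the restricted monkey's. Both sample 1 values thus lay above both sample 2 values. The change was -2.42 (5.35-fold lower) in the ad libitum and -1.19 (2.28-fold lower) in the restricted monkey. A 2-fold decrease in both animals was found in 11 of 9888 genes past the level filter (0.111%). ALDH1A2 was chosen by these changes, so nothing is read from that share. Without the ad libitum monkey's sample 2, the values spanned 6.78 to 8.33, with the restricted monkey's sample 2 the lowest.

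The values for ALDH1A2 come from probe set 207016_s_at. Its other probe set, 207015_s_at, lay between 4.02 and 4.35, below the level filter, with changes of 0.20 and -0.05. The mean of both probe sets gave -1.11 and -0.62, so that the decrease in the restricted monkey was then under 2-fold. ALDH1A2-AS1, the antisense gene of ALDH1A2, is no member of the set and lay between 2.08 and 2.54.

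ALDH1A1, the retinal dehydrogenase that is abundant in liver, had a different pattern. Its log2 signal was 8.81 and 9.89 in the ad libitum monkey and 7.89 and 8.11 in the restricted monkey. Both ad libitum samples were above both restricted samples. Sample 2 was 2.12-fold higher than sample 1 in the ad libitum monkey (1.08) and 1.17-fold higher in the restricted monkey (0.22). Within the ad libitum monkey the change of ALDH1A1 exceeded that of ALDH1A2 by 3.50 on the log2 scale, and within the restricted monkey by 1.41.

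ALDH1A3, another enzyme of the family, was low throughout. Its brighter probe set read 3.49 and 4.40 in the ad libitum monkey and 3.95 and 3.90 in the restricted monkey. The ad libitum sample 2 was the highest, by 0.91 over sample 1. The other probe set lay between 3.34 and 3.61 with changes of -0.04 and 0.27, so the probe sets of ALDH1A3 disagreed in the direction of both changes. Of the 3 synthesis enzymes, then, ALDH1A2 was lower in sample 2 of both animals, ALDH1A1 was 2-fold higher in the ad libitum monkey and 1.17-fold higher in the restricted one, and ALDH1A3 was not 2-fold apart in either. Whether the change of a gene differs between the animals was not tested, since each animal and sample number has 1 array.

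Among the binding proteins, CRABP2 had changes of opposite sign in the 2 animals. Its log2 signal was 8.66 and 6.80 in the ad libitum monkey's samples 1 and 2, and 7.20 and 8.61 in the restricted monkey's. The high samples were thus the ad libitum sample 1 and the restricted sample 2, and those 2 values differed less from each other than from the other 2 samples. Sample 2 was 3.63-fold lower in the ad libitum monkey (-1.86) and 2.66-fold higher in the restricted monkey (1.41). A 1.5-fold decrease in the first with a 1.5-fold increase in the second was found in 1.18% of genes past the level filter. CRABP2 had the 16th largest increase of these 9888 genes in the restricted monkey and the 168th largest decrease in the ad libitum monkey. CRABP2 was chosen by these changes, so nothing is read from the ranks or the share. It has a single probe set, 202575_at, so no second one could be set beside it.

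RBP4, the plasma carrier of retinol that is made mainly in liver, was low and nearly flat in this tissue. Its brighter probe set read 3.71 and 3.62 in the ad libitum monkey and 3.71 and 3.72 in the restricted monkey. The other probe set was lower in sample 2 of both animals, by -0.34 and -0.48. STRA6, the membrane receptor for RBP4, read 4.85 and 4.92 in the ad libitum monkey and 4.44 and 4.61 in the restricted monkey. All 3 of its probe sets lay below the level filter, and their changes ranged from 0.0036 to 0.20.

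DHRS3, the retinal reductase that holds back retinoic acid synthesis and is known as a gene that retinoic acid itself raises, had changes of opposite sign to those of CRABP2. Its log2 signal was 7.07 and 7.80 in the ad libitum monkey and 6.68 and 6.03 in the restricted monkey. The ad libitum samples were both above the restricted samples, and sample 2 was the extreme of each animal. Sample 2 was 1.65-fold higher in the ad libitum monkey (0.73) and 1.58-fold lower in the restricted monkey (-0.66), both under 2-fold. A 1.5-fold increase in the first with a 1.5-fold decrease in the second was found in 1.45% of genes past the level filter. The change of CRABP2 minus that of DHRS3 was -2.59 in the ad libitum monkey and 2.07 in the restricted monkey.

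CYP26B1, one of the cytochromes that hydroxylate retinoic acid, was below the level filter. Its brighter probe set read 4.41 and 4.60 in the ad libitum monkey and 4.19 and 4.43 in the restricted monkey, changes of 0.19 and 0.24. The other read 3.45 and 3.90, and 3.45 and 3.48. The other CYP26 gene with a probe set here, CYP26A1, read 3.70 and 3.31 in the ad libitum and 3.26 and 3.42 in the restricted monkey. Thus neither CYP26 gene was 2-fold apart, while a synthesis enzyme, ALDH1A2, and a binding protein, CRABP2, were 2-fold apart in both animals. Since the CYP26 genes, STRA6, RBP4 and ALDH1A3 lay low on the array and detection above background was not assessed here, small changes of these genes may not have been detectable.

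**Figure D2:**
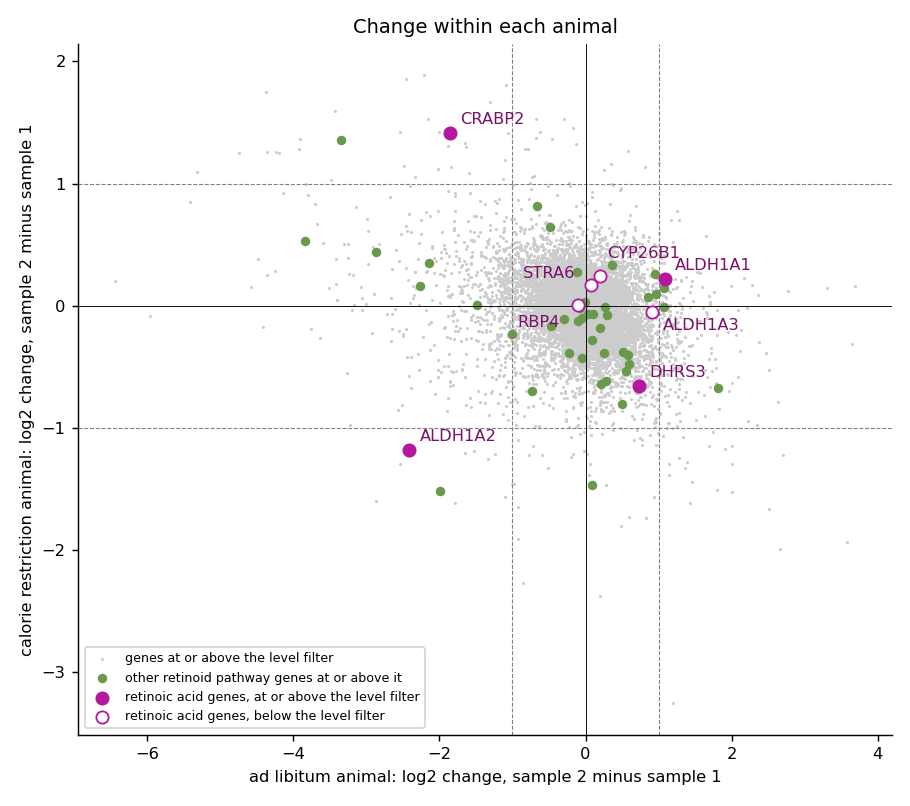
Log2 change, sample 2 minus sample 1, in the ad libitum monkey (x axis) and the restricted monkey (y axis), with dashed lines at 2-fold, grey points for the 9888 genes past the level filter, green for other retinoid pathway genes past it, and the 8 measured genes named (open where below it). ALDH1A2 lies 2-fold lower in both animals, CRABP2 lies lower in the first and higher in the second, and RBP4, STRA6 and CYP26B1 lie near 0.

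The cells that make up a sample can differ between samples, and in bulk tissue fewer cells of a type and less RNA per cell cannot be told apart. CRABP2 had the sample order ad libitum 1, restricted 2, restricted 1, ad libitum 2, from high to low. That order was found in 9.5% of genes past the level filter and in 8 of 10 luteal steroidogenic markers, among them STAR, CYP11A1 and HSD3B2. The mean log2 signal of those 10 markers was 10.9 and 7.19 in the ad libitum monkey's samples 1 and 2, and 9.24 and 10.1 in the restricted monkey's. All 10 were 2-fold lower in sample 2 of the ad libitum monkey, and 5 were higher in that of the restricted monkey. The bacterial hybridisation controls had the same order, with mean log2 signals of 10.6 and 9.85 in the ad libitum and 10.1 and 10.5 in the restricted monkey. Of 10 fibroblast and stroma markers, 4 shared the order too, COL1A1, COL1A2, COL3A1 and MFAP5, though that list's mean signal was flatter, at 9.04, 8.94, 8.38 and 8.62 in the same sequence of samples. The part of any of these in the values of CRABP2 was not tested.

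DHRS3 ran from high to low through ad libitum 2, ad libitum 1, restricted 1 and restricted 2. That order was found in 7.52% of genes past the level filter and in 2 of 6 theca and interstitial markers, CYP17A1, the androgen-making enzyme, and TCF21. The mean of the theca list was 8.42 and 9.83 in the ad libitum monkey and 8.36 and 7.41 in the restricted monkey, with 5 of 6 higher in the first and 2 lower in the second. Also 3 oocyte markers, ZP4, FIGLA and NLRP5, had that order among 10. So had 2 of 10 fibroblast and stroma markers, FBLN1 and OGN. The order was found too in 1 of 10 T and NK cell markers, CD2, and 1 of 10 surface epithelium and mesothelium markers, CDH1. Of these, FIGLA, NLRP5, OGN, CD2 and CDH1 lay below the level filter, unlike the genes that the share of 7.52% covers. The oocyte list's mean was 4.21 and 5.43 in the ad libitum monkey and 4.16 and 4.02 in the restricted monkey, with 3 of 10 markers 2-fold higher in the ad libitum sample 2 and 3 of 10 below the 25th percentile of all genes. ZAR1 (4.42 and 8.12, 13.0-fold) and ZP4 (4.65 and 8.30, 12.5-fold), which are oocyte genes, had the 2 largest increases in the ad libitum monkey of genes past the level filter, in the sample on which every ad libitum change rests. Both passed the level filter of log2 5.26 through that sample alone, and read between 4.13 and 4.68 in the others. ALDH1A1 shared its order with 5 of 10 smooth muscle and pericyte markers, ACTA2, MYH11, TAGLN, CNN1 and DES, and with 5.26% of genes past the level filter. That list's means were 8.40, 8.34, 7.96 and 8.20. In the ad libitum monkey 2 of its 10 markers were 2-fold lower in sample 2, RGS5 and MCAM, and 1 was higher, MYH11. In the restricted monkey 1 was higher, TAGLN. The order of ALDH1A1 was also that of 2 of 9 granulosa markers, FSHR, below the level filter, and FST. It was found too in 1 of 10 markers each of T and NK cells (CD8A), fibroblast and stroma (DPT) and surface epithelium and mesothelium (KRT19). For ALDH1A2, 1 of 10 endothelial markers, VWF, and 1 of 10 luteal markers, CYP19A1, had the same order, as did 5.74% of genes past the level filter. So had 1 of 9 granulosa markers, GJA1, and 1 of 10 T and NK cell markers, CD247, which lay below the level filter. The endothelial list's mean was 7.52 and 6.47 in the ad libitum monkey and 8.00 and 7.67 in the restricted monkey, lower in sample 2 of both, with 5 of 10 markers 2-fold lower in the first and 1 in the second. Of 10 surface epithelium and mesothelium markers, 4 passed the level filter, KRT18, WT1, KRT8 and KRT19, and CDH1 and MSLN lay below the 25th percentile of all genes. That list's mean was 5.28 and 4.73 in the ad libitum monkey and 4.81 and 5.03 in the restricted monkey, with 3 of 10 markers 2-fold lower in the first and 1 higher in the second. KRT18, a keratin, had changes of -1.63 and 1.30, of the same signs as CRABP2, but not its sample order. KRT8, MSLN and UPK1B had those signs too, and KRT7, KRT19, WT1, CDH1, UPK3B and LRRN4 did not. Of the 10 markers, 1 had the sample order of CRABP2, UPK1B. Whether these cell types had a part in the values was not tested.

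For each gene past the level filter, the genes with the most similar pattern were found by the Euclidean distance between log2 values over the 4 samples, each gene centred on its own mean. For CRABP2 these were MFAP5, a microfibril protein, at a distance of 0.076, the phospholipase PLA2G5 at 0.16 and STAMBPL1, a deubiquitinase, at 0.37. MFAP5 read 7.33 and 5.45 in the ad libitum monkey and 5.91 and 7.22 in the restricted monkey. For DHRS3 they were LGR4, a receptor for R-spondins, at 0.11, the transcriptional inhibitor ID2 at 0.17 and the transcription factor NFATC2 at 0.17. For ALDH1A1 they were MGST1, a microsomal glutathione transferase, at 0.14, FNDC5 at 0.16 and the replication factor MCM5 at 0.20. MGST1 (4.59 and 4.62) and FNDC5 (4.66 and 4.86) lay below the level filter in the restricted monkey. Both passed it through the ad libitum samples, so their likeness to ALDH1A1 rests in part on low values. ALDH1A2 had the least close neighbours, CEBPB, a transcription factor, at 0.42, PPP1R14C, a phosphatase inhibitor, at 0.52 and the small GTPase RHOB at 0.55. PPP1R14C in the ad libitum sample 2 (4.64) and NFATC2 in the restricted sample 2 (4.71) also lay below the level filter. With 4 samples such likeness is a description of these arrays.

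**Figure D3:**
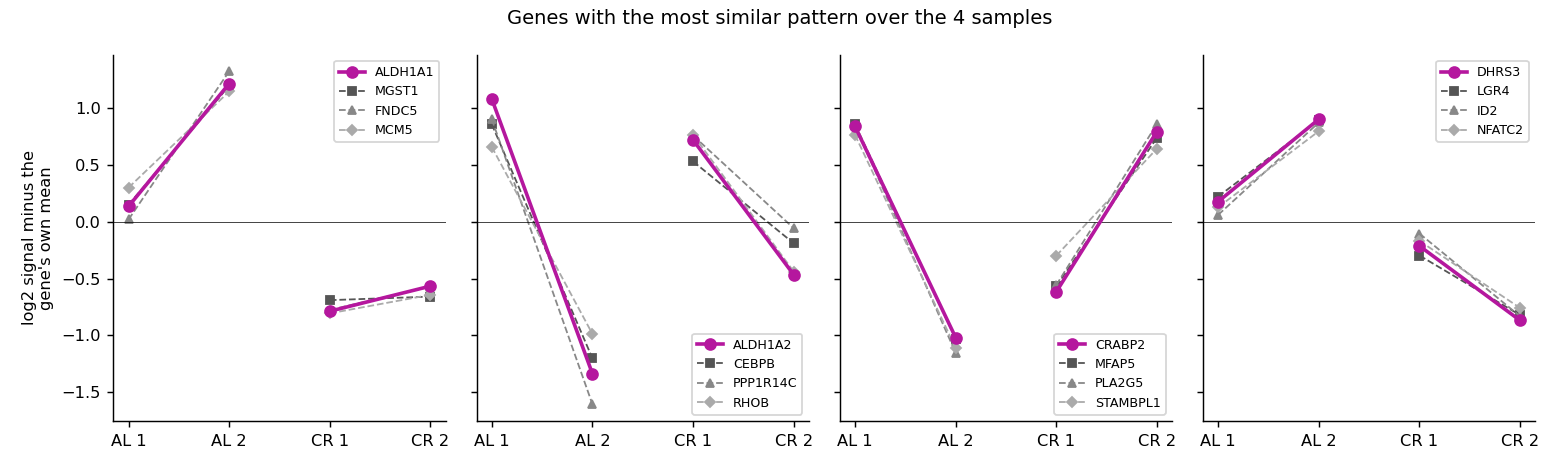
Log2 signal minus the gene's own mean (y axis) in the 4 samples (x axis; AL, ad libitum; CR, calorie restriction) for ALDH1A1, ALDH1A2, CRABP2 and DHRS3 and, in grey, the 3 genes nearest to each, with lines joining the samples of 1 animal. The 3 genes nearest to CRABP2 lie high in AL 1 and CR 2, and those nearest to ALDH1A2 are lower in sample 2 of both animals.

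The rest of the retinoid pathway was read from 6 lists of 88 different genes, of which 74 had a probe set and 42 passed the level filter. In the ad libitum monkey 9 of the 74 were 2-fold lower in sample 2 and 4 higher, and in the restricted monkey 2 were lower and 1 higher, beside the shares of all genes given above (3.83% and 1.96%, and 0.45% and 0.349%). Their median changes were 0.0073 and -0.057, near those of all genes. In the list of 13 genes of retinoid uptake and storage, 3 were lower in the ad libitum monkey. RBP7, a cellular retinol-binding protein, read 10.8 and 8.49 in the ad libitum monkey (-2.27) and 10.4 and 10.6 in the restricted monkey. DGAT1, which can esterify retinol besides making triglyceride, had changes of -2.87 and 0.44, and BCO2, a carotenoid-cleaving enzyme, of -1.49 and 0.01. CES1, an esterase that can release retinol from its esters, was higher in the ad libitum sample 2 (1.08). TTR, which carries RBP4 in plasma, was flat (-0.01 and 0.03), and LRAT, the main retinol-esterifying enzyme, lay below the 25th percentile of all genes.

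Among 17 genes that interconvert retinol and retinal, AKR1B10, a retinal reductase, had the largest decrease. It read 11.9 and 8.02 in the ad libitum monkey (14.3-fold lower) and 10.9 and 11.4 in the restricted monkey. DHRS9, a retinol dehydrogenase, was 4.43-fold lower in the ad libitum sample 2 (-2.15), with a change of 0.35 in the other animal, and all 3 of its probe sets were 2-fold lower in the first. Of the 74 other pathway genes, 4 had the sample order of CRABP2, beside 6.91% of all genes. They were RBP7, AKR1B10, DHRS9 and RDH12, the last below the level filter. RDH10, the main retinol dehydrogenase of embryonic retinoic acid synthesis, was not 2-fold apart (0.50 and -0.81). HSD17B6, which also oxidises retinol, was below the level filter, with changes of 2.27 and -0.92.

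In the remaining breakdown list of 7 genes, only CYP3A4, a broad-specificity cytochrome, was 2-fold apart (-3.35 and 1.36). A second probe set, also past the filter, read changes of 0.10 and 0.09, so the probe sets of CYP3A4 disagreed. Its probe sets below the filter had changes of 0.30 and 0.13, of 0 and 0.31, and of -1.20 and 0.21. The mean of all its probe sets, those below the filter included, gave -0.83 and 0.42, under 2-fold. Probe sets of CYP3A genes may share signal. Of 11 genes of receptors and delivery, FABP5, which carries retinoic acid to the receptor PPARD, read 9.22 and 11.0 in the ad libitum monkey (3.51-fold higher) and 8.95 and 8.28 in the restricted monkey (-0.67). FABP5 and CRABP2 thus had changes of opposite sign within each animal. The retinoic acid receptors RARA (-0.22 and -0.38), RARB (0.60 and -0.48) and RARG (-0.11 and -0.13) and the partners RXRA (-0.30 and -0.11) and RXRB (0.27 and -0.01) were not 2-fold apart, and RXRG (0.01 and -0.49) lay below the 25th percentile of all genes. With the mean of all probe sets, RARA (0.078) and RARB (-0.040) in the ad libitum monkey and RARG (0.13) in the restricted monkey took the other sign. The orphan receptor RORB was 2-fold lower in the ad libitum sample 2 (-1.35), below the level filter, and came to -0.58 where its probe sets were averaged.

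Of 7 receptor cofactors, NRIP1, a corepressor that retinoic acid is known to raise, was higher in the ad libitum sample 2 (1.07), with a change of 0.14 in the restricted monkey. In the list of 25 genes known to respond to retinoic acid, 3 were lower and 1, NRIP1, higher in the ad libitum monkey, and 2 were lower in the other. The 3 were DHRS9, EGR1 (-1.99) and the transcription factor GATA6 (-1.01), and the 2 were EGR1 (-1.52) and BHLHE40 (-1.47). EGR1 and BHLHE40 also respond to many other stimuli. NRIP1 and GATA6 lay near the 2-fold limit: averaging each gene's probe sets gave 0.91 for NRIP1 and -0.41 for GATA6, and under cyclic loess GATA6 came to -0.94. The list's median changes were -0.12 and -0.066.

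**Figure D4:**
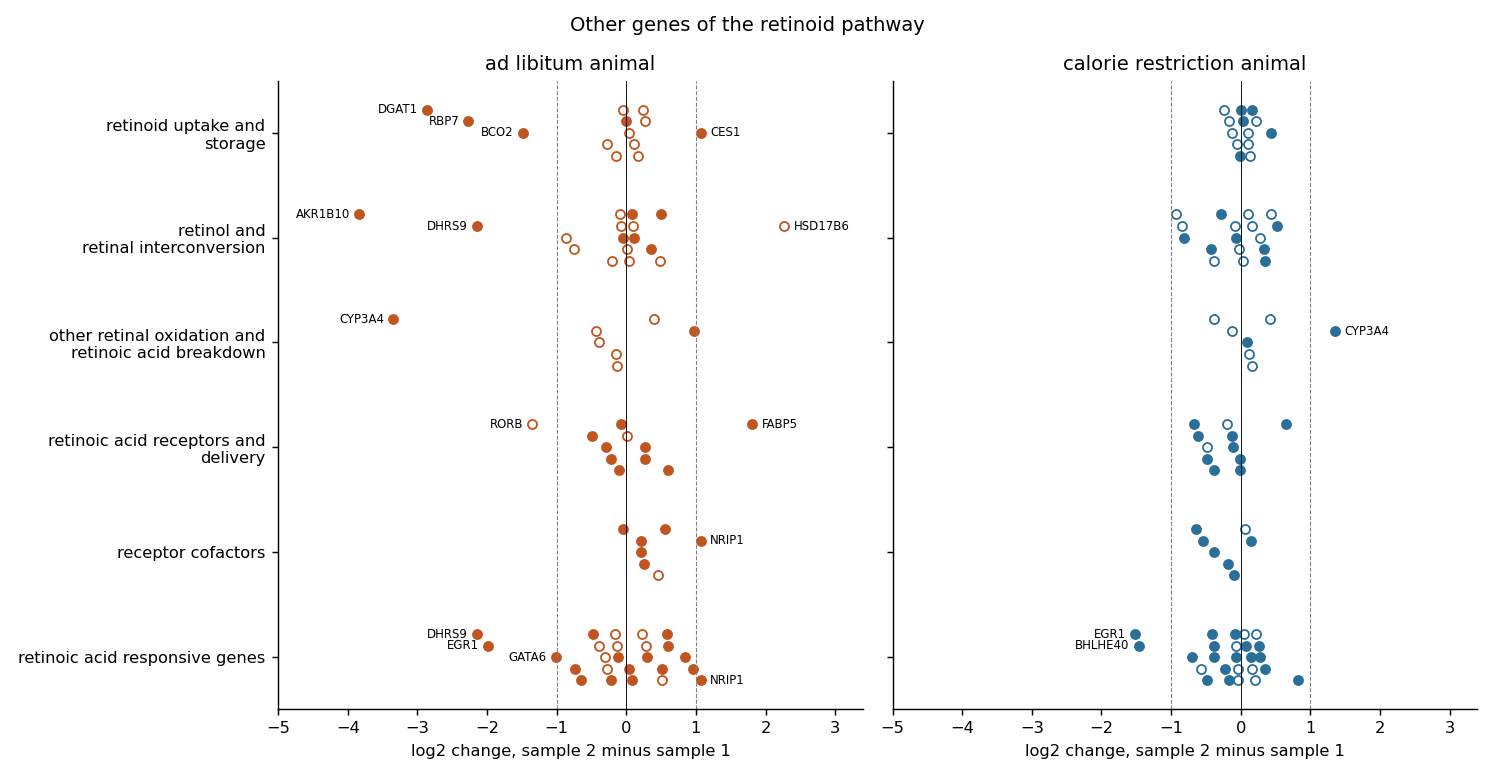
Log2 change, sample 2 minus sample 1 (x axis), of other retinoid pathway genes by list (y axis) in the ad libitum (left) and restricted monkey (right), filled where the gene passed the level filter, with dashed lines at 2-fold and names beyond them. In the ad libitum monkey 9 different genes lie 2-fold lower and 4 higher, and in the restricted monkey 2 lie lower and 1 higher.

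The difference between the animals, restricted minus ad libitum, has 2 arrays a side. Sample 2 against sample 1 over both animals has as many, but was not tested, since the genes were chosen by that change. The difference between the animals was fitted with limma across 9888 genes, and its p-values measure the spread between the samples of these 2 monkeys and not between monkeys. That spread holds the change from sample 1 to sample 2 within each animal, so it is not a spread between replicates. No gene passed a Benjamini-Hochberg adjusted p of 0.05, and 522 (5.28%) had an unadjusted p under that value. ALDH1A1 was lower in the restricted monkey, with log2 means of 8.00 ± 0.16 against 9.35 ± 0.76 (SD, n = 2 each), a difference of -1.35 (SE 0.40, limma adjusted p = 0.83). DHRS3 was lower too, at 6.36 ± 0.46 against 7.44 ± 0.51, a difference of -1.08 (SE 0.36, limma adjusted p = 0.88). In both genes the samples of the animals did not overlap, as they did not in 18.7% of genes with the ad libitum monkey higher, and their unadjusted limma p of 0.021 for ALDH1A1 and 0.030 for DHRS3 did not pass the adjustment over 9888 genes. ALDH1A2 (difference 0.25, SE 0.88) and CRABP2 (0.18, SE 0.77) overlapped between the animals, with limma adjusted p of 0.98 for each, and leaving out 1 sample gave either sign (-0.96 to 1.46 and -0.75 to 1.11). STRA6, below the level filter, also had both ad libitum samples above both restricted samples. Without the ad libitum monkey's sample 1 the difference for ALDH1A1 was -1.89, and without that monkey's sample 2 it was -0.81. Each of these fits sets a lone ad libitum array against 2, so no p-value is given for them. Over the alternatives that kept all 4 samples, the limma adjusted p of ALDH1A1 ranged from 0.42 to 0.91. Under every alternative the restricted monkey was lower. Probe sets designed on human genes can read the alleles of 2 monkeys unequally, which bears on a difference between animals and was not tested.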

How the data were processed

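RNA of frozen corpus luteum was amplified, biotin-labelled and hybridised to 4 arrays, 1 per sample, per the labels' protocols. The authors deposited RMA log2 values for each probe set, made with Affymetrix Power Tools, per the submitters' processing notes, with no version named. RMA makes the arrays' distributions alike, so a shift of all genes would not be seen. Scanner files were not used here, so detection of single probe sets is unknown, and the number of arrays limits the precision. The labels do not say whether an animal's 2 samples came from separate corpora lutea. The p-values measure only the spread between these samples. That spread holds the change from sample 1 to sample 2 within each animal, and may in part be technical.

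Of 54675 probe sets, 62 controls were left out and 41091 with 1 gene symbol were used. The brightest probe set by mean over the 4 samples stood for a gene, and genes below the median of these means (log2 5.26) stayed out of fits and rankings; members and list genes were counted whatever their level. Changes have no replicate and no test, and 2-fold is a rule of size. The animals were compared with limma 3.58.1 (a linear model, trended eBayes, Benjamini-Hochberg) in R 4.3.3. The fit was run on simulated data with the same spread on all 4 arrays, to check that the size of planted differences was recovered. No simulated array stood apart as the ad libitum sample 2 does, so nothing is read from that check about the calls. Named genes were all members, pathway genes 2-fold apart in either animal, a fixed set of receptors and enzymes, and the 3 nearest genes by pattern, passing over placeholder symbols. Members, lists and tests were chosen with earlier results of these data known. Alternatives were other normalisations, probe set choices, filters and thresholds, no trend, a block and leaving out each sample.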

Additional observations from a re-analysis of the deposited data

Results flagged for a closer look

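CRABP2 had changes of opposite sign in the 2 animals, -1.86 in the ad libitum monkey and 1.41 in the restricted one. DHRS3 had the opposite pair, 0.73 and -0.66. Of genes past the level filter, 1.18% were 1.5-fold lower in the ad libitum and 1.5-fold higher in the restricted monkey, and 1.45% were the reverse. Of other pathway genes, CYP3A4 (-3.35 and 1.36), FABP5 (1.81 and -0.67) and HSD17B6 (2.27 and -0.92) were also at least 1.5-fold apart in each animal with opposite signs. However, a second probe set of CYP3A4 past the filter had changes of 0.10 and 0.09, and HSD17B6 was below the filter. The difference between the animals' changes was not tested for any of these 5 genes, and the direction would turn in 1 animal if its sample numbers were exchanged.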

How the results depend on the processing

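The counts of members 2-fold apart were those given under cyclic loess and with arrays shifted to one median. Without probe sets of less specific design, ALDH1A2 and RBP4 have no probe set left, and the members lower in sample 2 were 1 (ad libitum) and 0 (restricted). The latter was also 0 with the mean of all probe sets, where ALDH1A2 came to -0.62. At 1.5-fold, 3 members were higher in the ad libitum monkey and 2 lower in the restricted monkey. Leaving out 1 sample gave between 0 and 474 genes and between 0 and 1 members called between the animals, with a lone sample assumed to vary like the others. The upper counts came only from the fit without the ad libitum sample 1, and the member, of 4 tested, was ALDH1A1. That fit sets the ad libitum sample 2, which stood apart, alone against the restricted samples, so nothing is read from these counts. Every other fit that left out a sample gave the lower counts. With the sample number as a replicate block, limma called 0 genes and 0 members. Same-numbered samples deviated from their animal's mean in opposite ways (r = -0.27 across 9888 genes, which are not independent), and with crossed numbers, chosen after seeing the data, limma called 0 genes.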

Other observations

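Retinoid pathway genes other than the members also had no overlap between the animals, in either direction, and 5 picked from them are given here. Both ad libitum samples lay above both restricted samples in 18.7% of genes past the level filter. The share for the other direction was not counted. CES1, an esterase that can act on retinyl esters, read 7.15 and 8.23 in the ad libitum monkey and 3.95 and 3.94 in the restricted monkey, a difference of -3.74 (SE 0.38, limma adjusted p = 0.44). Both restricted values lay below the level filter of log2 5.26, which CES1 passed through the ad libitum samples. MEIS1, a homeobox gene known to respond to retinoic acid, read 8.31 and 9.16 against 6.94 and 7.01 (difference -1.76, limma adjusted p = 0.63). RARRES2, which encodes the retinoic acid responsive adipokine chemerin, read 8.39 and 9.35 against 7.62 and 7.88 (difference -1.12, limma adjusted p = 0.88). For these genes both ad libitum samples lay above both restricted samples. The other way, BCO2, a carotenoid-cleaving enzyme, read 7.54 and 6.06 against 8.11 and 8.12 (difference 1.32, limma adjusted p = 0.88). ICAM1, an adhesion molecule that retinoic acid is known to raise, read 6.49 and 6.01 against 7.17 and 7.0 (difference 0.84, limma adjusted p = 0.83). None of the 5 passed the adjustment, and all were named after their values were seen.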
